A study of Mus musculus with 4 samples.

Results

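The genes described here are the ligands and receptors of the tumour necrosis factor (TNF) superfamily, chosen by symbol from a table of read counts per gene: names that begin with Tnfrsf or Tnfsf and a digit, together with Tnf, Lta, Ltb, Ltbr, Fas, Fasl, Cd40, Cd40lg, Cd27, Cd70, Ngfr and Eda2r. They made up 44 of 29247 rows, with 17 ligands, 26 receptors and 1 antisense RNA (Tnfsf13os), and 42 of them passed the filter on low counts that 18715 genes passed. Edar, also named by the rule, was not analysed here. Messenger RNA was sequenced from flow-sorted liver macrophages of C57BL6J mice aged 8 weeks. The APAP group is 3 libraries of Cxcr4+ macrophages from mice that had received 300 mg/kg acetaminophen (APAP) in saline into the peritoneum 72 h earlier. The control is 1 library of macrophages whose treatment is labelled only as control, with no vehicle and no gate named. The drug and the Cxcr4 sort therefore cannot be told apart in any value below.

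TNF superfamily ligands are trimeric proteins that sit in the cell membrane or are cut from it, and their receptors are membrane proteins with cysteine-rich repeats. Receptors without a death domain recruit TRAF adaptors and switch on NF-kB and kinases, whereas death receptors bind FADD or TRADD and can start caspase-8 or RIPK3 and MLKL killing. In the liver, macrophages are a main source of TNF, and after acetaminophen overdose resident Kupffer cells are joined by macrophages that develop from blood monocytes.

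The libraries held 48282283, 52043418 and 56702837 counts in APAP Cxcr4+ macrophages and 49950909 in control macrophages, and no pair repeated a library within sampling noise. Levels are in CPM, a gene's counts after every library is brought to the same size with TMM factors. The sort marker Cxcr4 had 84.5, 132 and 101 CPM in the APAP samples, against 41.3 CPM in the control (log2 fold change 1.36, SE 0.26, adjusted p = 0.00978). All 8 general macrophage markers were detected in every library, with summed levels of 15862 to 18471 CPM in the APAP samples and 18868 CPM in the control, but Cd14 (-1.49), Fcgr1 (-0.72), Cd68 (-0.56) and Adgre1 (-0.55) were lower and Mertk (0.56) was higher on the log2 scale. All p-values come from edgeR's quasi-likelihood test adjusted over the 18715 genes, and with a single control library the spread behind them is that of the 3 APAP samples. The labels do not say whether those came from separate mice, so the spread may be technical.

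Of the 42 TNF ligand and receptor genes tested, 12 rose in APAP Cxcr4+ macrophages and 5 fell at an adjusted p of 0.05. Among all genes tested 25.4% were called higher and 18.9% lower, so the members' shares of 28.6% and 11.9% lie near or under the background and are no result about the family as a whole. The median log2 fold change was 0.05 over the 42 members, also with Tnfsf15 at its lower bound, and 0.08 over all genes. The genes that rose were the ligands Lta, Ltb, Tnfsf14, Tnfsf15, Cd40lg and Tnfsf8 and the receptors Tnfrsf14, Tnfrsf13b, Tnfrsf13c, Tnfrsf10b, Cd27 and Tnfrsf18. Those that fell were the receptors Tnfrsf1a, Ltbr, Cd40 and Ngfr and the antisense RNA Tnfsf13os. Every APAP sample lay above the control for the 12 and below it for the 5, which is not support apart from the calls. Lta, Tnfsf15, Tnfrsf10b and Tnfrsf18 had fewer counts in the control than the filter's minimum of 10, so they were tested only because they were high in the APAP group, and their calls add no support of their own. Over all tested members the control lay below all 3 APAP samples for 19 and above them for 13, against 45.7% and 39.2% of all genes.

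**Figure D1:**
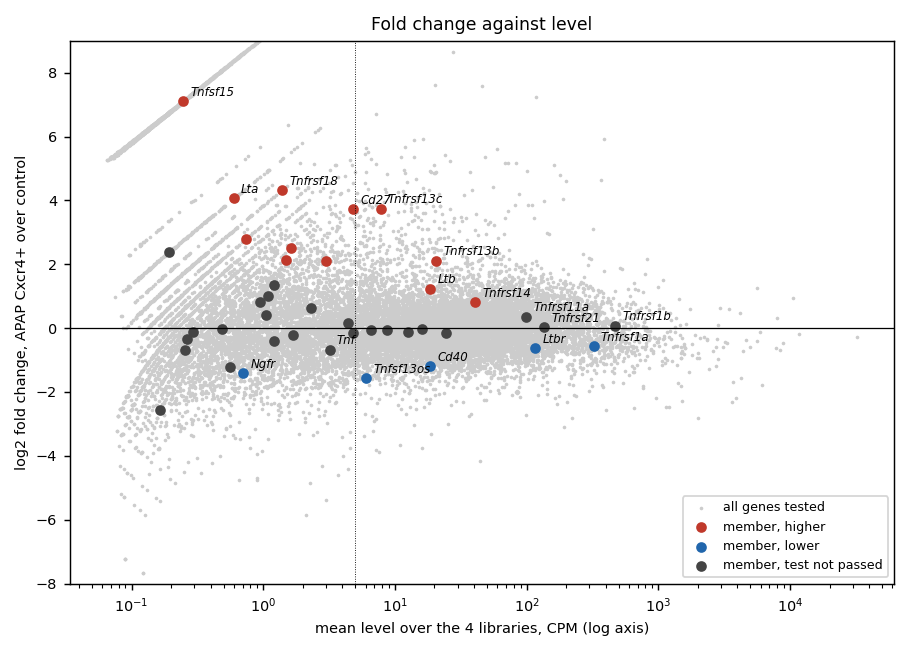
Each point is 1 gene, placed by its mean level over the 4 libraries in CPM (log axis) and its log2 fold change, APAP Cxcr4+ over control; grey points are all genes tested, except 92 outside the axis range, and larger points are the TNF ligand and receptor genes, red if higher, blue if lower and dark grey if the test was not passed. Most of the red points lie at low levels, left of the dotted line at 5 CPM. Of the most abundant receptors, Tnfrsf1b and Tnfrsf21 lie close to 0, and Tnfrsf1a and Ltbr were lower, at -0.57 and -0.63. The fitted value of Tnfsf15, at 0 counts in the control, depends on the prior count.

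Most of the family's summed CPM came from a few receptors, none of which was called higher. Tnfrsf1b, Tnfrsf1a, Ltbr, Tnfrsf21 and Tnfrsf11a held 82.5%, 82.6% and 83.2% of the summed level of the 44 genes in the APAP samples and 87.1% in the control. The sum itself was 1349.9, 1379.6 and 1294 CPM in the APAP samples and 1442 CPM in the control. CPM is not scaled to length. Per kilobase of annotated exon, Tnfrsf14, which rose, stood above Tnfrsf11a in both groups. Of the 12 genes that rose, 9 stood under 1 CPM in the control, and the 3 at or above 1 CPM there were Ltb, Tnfrsf14 and Tnfrsf13b. When members were split by their mean over all 4 libraries, 8 of 26 under 5 CPM rose and 1 fell, beside 22.5% and 9% of all genes in that range. Lta, Tnfsf15, Tnfrsf10b and Tnfrsf18 are among these 8 and among the 9 above. They were tested only through the APAP group, so their calls add no support to either count. Of the 16 members at 5 CPM or more, 4 rose and 4 fell, beside 27.8% and 26.9% of all genes.

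Scaled to length, as CPM per kilobase of merged annotated exons, Tnfrsf1b led the family in APAP Cxcr4+ macrophages at 125 ± 6.39, and Tnfrsf1a followed at 112 ± 2.52 (SD, n = 3). In the control this order was turned, with Tnfrsf1b at 118 and Tnfrsf1a at 166 CPM per kilobase. Without length scaling Tnfrsf1b stood above Tnfrsf1a in the control too, at 451 and 429 CPM. The turned order thus depends on the exon lengths used and on 1 control library. Ltbr, Tnfrsf21 and Tnfrsf14 came next in both groups, at 43.7 ± 2.56, 33.4 ± 1.5 and 31.9 ± 2.48 CPM per kilobase in APAP Cxcr4+ macrophages and at 67.6, 32.8 and 18.1 in the control. In the APAP group Tnfrsf21 and Tnfrsf14 differed by less than the SD of Tnfrsf14. The most abundant ligands were Tnfsf12, at 15.8 ± 1.77 CPM per kilobase in the APAP group and 17.5 in the control, and Ltb, at 14.3 ± 1.98 in the APAP group and 6.03 in the control. The ligand Tnf itself stood at 1.69 ± 0.374 CPM per kilobase in the APAP group and 2.7 in the control.

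**Figure D2:**
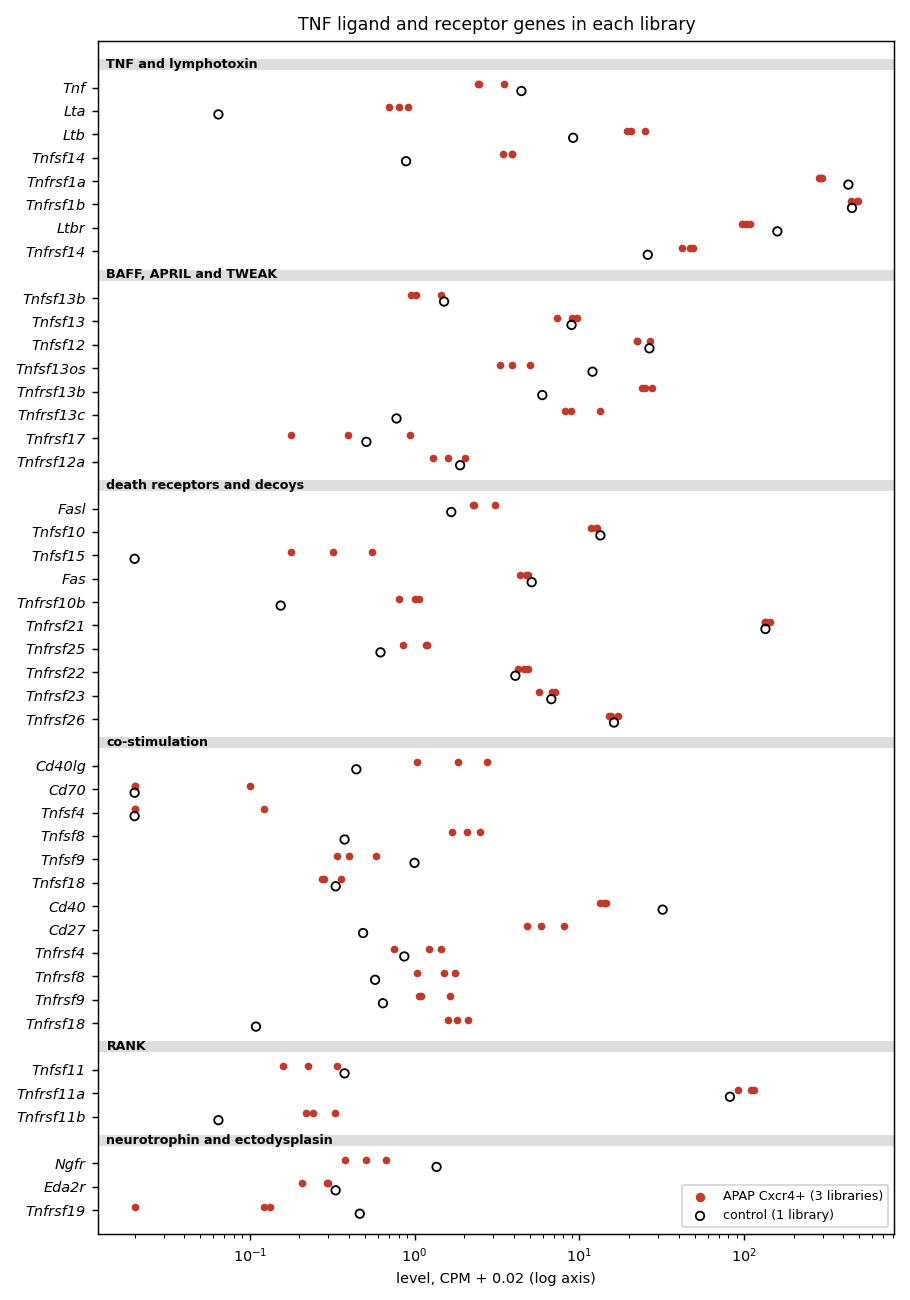
Level of each TNF ligand and receptor gene in each library, as CPM + 0.02 on a log axis, grouped by signalling axis; filled red points are the 3 APAP Cxcr4+ libraries and open circles the control library. The control circle lies apart from the red points for Lta, Tnfrsf13c, Cd27 and Tnfrsf18 on the low side and for Cd40 and Tnfsf13os on the high side, and among them for Tnfrsf1b and Tnfrsf21.

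Of the ligands of the TNF and lymphotoxin axis, Ltb, Tnf and Lta are encoded side by side on chromosome 17. Tnf, the cytokine that gives the family its name, had 3.48, 2.44 and 2.41 CPM in APAP Cxcr4+ macrophages and 4.43 CPM in control macrophages. All 3 APAP values were below the control, but the test was not passed (log2 fold change -0.68, SE 0.29, adjusted p = 0.103). Without the first APAP sample the value was -0.87 (adjusted p = 0.025). Ltb, whose product forms the membrane heterotrimer of lymphotoxin with that of Lta, had 20.6, 25.1 and 19.4 CPM in the APAP samples and 9.15 CPM in the control. It rose by 1.24 on the log2 scale (SE 0.19, adjusted p = 0.00505). Lta, which also forms a secreted homotrimer that binds the TNF receptors, had 34, 42 and 52 counts in the APAP samples and 2 in the control. Its ratio of scaled counts was 17.7 with an exact 95% counting interval of 4.8 to 148 (adjusted p = 0.00612 in the edgeR fit). Of these neighbours Ltb rose and Tnf, which lies between Ltb and Lta, did not pass. Lta was tested only through the APAP group, so its call adds no support of its own.

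Tnfsf14, or LIGHT, is a ligand of both Ltbr and Tnfrsf14 and is known from activated T cells and myeloid cells. It had 3.9, 3.44 and 3.89 CPM in APAP Cxcr4+ macrophages and 0.868 CPM in control macrophages, which is 2.11 on the log2 scale (SE 0.27, adjusted p = 0.00296). The APAP values spread little and stood clear of the control.

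The receptors of this axis went both ways. Tnfrsf1a, the death-domain receptor for TNF found on most cells, had 288, 296 and 283 CPM in the APAP samples and 429 CPM in the control (log2 fold change -0.57, SE 0.09, adjusted p = 0.00504). Tnfrsf1b, the TNF receptor without a death domain that is found mainly on leukocytes and endothelium, had 493, 488 and 448 CPM in the APAP samples and 451 CPM in the control (log2 fold change 0.08, SE 0.11, adjusted p = 0.575). The control lay outside the APAP range for the first receptor and inside it for the second. The ratio of Tnfrsf1b to Tnfrsf1a per kilobase was 1.16, 1.12 and 1.07 in the APAP samples and 0.714 in the control. In CPM it was 1.71, 1.65 and 1.58 in the APAP samples and 1.05 in the control. Ltbr, the lymphotoxin beta receptor of stromal and myeloid cells, had 109, 102 and 97.2 CPM in APAP Cxcr4+ macrophages and 159 CPM in control macrophages, and fell by 0.63 on the log2 scale (SE 0.1, adjusted p = 0.00499). Tnfrsf14, the herpesvirus entry mediator, had 49.0, 46.6 and 42 CPM in the APAP samples and 26 CPM in the control, and rose by 0.82 (SE 0.12, adjusted p = 0.00487). Both receptors of Tnfsf14 therefore changed beyond the spread, in opposite directions.

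Sequences before the start sites are given for 6 genes of 2 clusters, because neighbours within each cluster differed in their calls. Ltb, Tnf and Lta lie together on chromosome 17, and Cd27, Ltbr and Tnfrsf1a lie within a short stretch of coding genes on chromosome 6, where Cd27 was higher and Ltbr and Tnfrsf1a were lower. The bases come from RefSeq promoter windows of build GRCm38.p6, read 5′ to 3′ on the gene's strand, and stop before any annotated exon. Capitals mark matches to the NF-kB consensus on either strand and to the TATA box (TATAAA) on the gene's strand, and the motifs did not overlap.
Ltb (chr17:35194257-35194438, + strand): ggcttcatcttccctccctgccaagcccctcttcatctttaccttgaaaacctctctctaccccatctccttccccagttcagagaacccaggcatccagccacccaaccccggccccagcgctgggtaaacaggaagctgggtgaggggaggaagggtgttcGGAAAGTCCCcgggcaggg
Tnf (chr17:35202008-35202257, - strand): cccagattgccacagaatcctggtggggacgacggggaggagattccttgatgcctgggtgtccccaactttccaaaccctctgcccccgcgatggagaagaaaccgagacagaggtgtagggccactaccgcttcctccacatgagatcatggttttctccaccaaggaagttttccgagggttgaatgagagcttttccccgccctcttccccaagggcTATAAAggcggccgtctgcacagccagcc
Lta (chr17:35205352-35205601, - strand): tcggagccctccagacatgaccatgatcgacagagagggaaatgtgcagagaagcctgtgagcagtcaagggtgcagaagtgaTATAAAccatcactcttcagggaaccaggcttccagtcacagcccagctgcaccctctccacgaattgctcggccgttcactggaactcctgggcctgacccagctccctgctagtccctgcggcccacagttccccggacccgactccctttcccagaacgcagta
Cd27 (chr6:125237028-125237277, - strand): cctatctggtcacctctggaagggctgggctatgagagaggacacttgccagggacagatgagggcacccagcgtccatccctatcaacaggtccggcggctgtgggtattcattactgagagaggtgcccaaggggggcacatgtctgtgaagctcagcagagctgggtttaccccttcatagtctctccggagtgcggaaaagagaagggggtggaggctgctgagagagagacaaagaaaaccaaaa
Ltbr (chr6:125313886-125314135, - strand): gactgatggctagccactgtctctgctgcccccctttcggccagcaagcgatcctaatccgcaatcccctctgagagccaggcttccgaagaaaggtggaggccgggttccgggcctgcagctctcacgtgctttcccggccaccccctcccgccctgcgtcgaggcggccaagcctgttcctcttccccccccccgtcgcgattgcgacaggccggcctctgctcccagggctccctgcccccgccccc
Tnfrsf1a (chr6:125349473-125349722, + strand): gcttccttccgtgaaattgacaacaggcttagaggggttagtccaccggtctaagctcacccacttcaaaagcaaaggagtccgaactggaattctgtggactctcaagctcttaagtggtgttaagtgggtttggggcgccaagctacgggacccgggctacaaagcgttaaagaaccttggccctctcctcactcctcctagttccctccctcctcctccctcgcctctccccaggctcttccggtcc

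In the 250 bases before the start, the NF-kB consensus was found in Ltb, on the opposite strand at 78 to 87 bases before the start, and in none of the other 5. The printed Ltb stretch holds 182 of these bases, since the other 68 lie in an annotated Ltb exon. A TATA box stood 24 to 29 bases before the start of Tnf and 162 to 167 bases before that of Lta. Over the 27025 genes with a window, 7.01% held the consensus and 8.12% the TATA box, and among the 33 members with a window 2 held the consensus (Ltb and Tnfrsf8) and 5 the TATA box. These are letter matches in a short window and say nothing of binding.

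BAFF, APRIL and TWEAK are ligands made by myeloid cells. None of the 3 passed the test. Tnfsf13b (BAFF, a survival factor for B cells) had 0.995, 1.43 and 0.938 CPM in APAP Cxcr4+ macrophages and 1.49 CPM in control macrophages (adjusted p = 0.398). Tnfsf13 (APRIL, a factor for plasma cells) had 7.34, 8.95 and 9.61 CPM in the APAP samples and 8.95 CPM in the control, and Tnfsf12 (TWEAK) had 27.0, 22.3 and 22.4 CPM in the APAP samples and 26.6 CPM in the control. For Tnfsf13 and Tnfsf12 the control lay within the APAP range (adjusted p = 0.853 and 0.436). Tnfsf13 shares 60% of its annotated exon bases with the read-through gene Tnfsfm13, and Tnfsf12 shares 48.3%, so their counts are uncertain. Tnfsfm13 was counted at 5.33, 4.52 and 4.91 CPM in the APAP samples and 2.98 CPM in the control (adjusted p = 0.0394).

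Tnfsf13os, an RNA on the strand opposite to Tnfsf13, was the antisense member. It had 3.3, 3.87 and 4.98 CPM in the APAP samples and 12.0 CPM in the control, and fell by 1.57 on the log2 scale (SE 0.24, adjusted p = 0.00513). It shares 19.9% of its exon bases with Tnfsf13 and 22.8% with Tnfsfm13, both on the other strand, and Tnfsfm13 was called higher. The sources used here do not give the strand setting of the counting, so reads of these genes cannot be told apart where they overlap.

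The receptors of BAFF and APRIL are known mainly from cells of the B lineage. Tnfrsf13b (TACI), which binds both ligands and is known from B cells and also from macrophages, had 27.6, 25.1 and 24.1 CPM in APAP Cxcr4+ macrophages and 5.94 CPM in control macrophages (log2 fold change 2.11, SE 0.15, adjusted p = 0.00107). Tnfrsf13c, the BAFF receptor of B cells, had 8.14, 13.3 and 8.94 CPM in the APAP samples and 0.757 CPM in the control (log2 fold change 3.74, SE 0.41, adjusted p = 0.00209). The second APAP sample was the highest for Tnfrsf13c and the middle one for Tnfrsf13b. Tnfrsf17 (BCMA), the receptor of plasma cells, had 8, 49 and 22 counts in the APAP samples and 22 in the control, and the control lay within that range (adjusted p = 0.989). Tnfrsf12a, the TWEAK receptor, had 1.99, 1.28 and 1.57 CPM in the APAP samples and 1.87 CPM in the control (adjusted p = 0.631).

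Most markers of B cells and plasma cells were higher in the APAP samples, as were Tnfrsf13b and Tnfrsf13c but not Tnfrsf17 or Tnfrsf12a. Of 12 B cell and plasma cell markers 11 were higher and none lower, beside 25.4% and 18.9% of all genes. Mzb1, with 1 count in the control, was tested only through the APAP group, so its call adds no support of its own. The summed level of the 12 markers was 523 to 778 CPM in the APAP samples and 156 CPM in the control. No marker was at 0 in the control. Cd79a, a subunit of the B cell receptor complex, had 28.2, 50.1 and 31.5 CPM in APAP Cxcr4+ macrophages and 3.36 CPM in control macrophages. The summed level, like Tnfrsf13c and Tnfrsf17, was highest in the second APAP sample, while Tnfrsf13b was highest in the first. The part of B cell RNA in the receptor values was not tested. In bulk libraries such as these, fewer cells of a type and less RNA per cell cannot be told apart.

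Of 10 death ligands, death receptors and decoys, Tnfsf15 and Tnfrsf10b were higher, none was lower and 8 did not pass. With 25.4% of all genes higher and 18.9% lower, so small a group gives no result of its own. Fas, the receptor that triggers apoptosis in hepatocytes and lymphocytes, had 4.88, 4.37 and 4.71 CPM in APAP Cxcr4+ macrophages and 5.12 CPM in control macrophages (adjusted p = 0.576). Its ligand Fasl, known from cytotoxic lymphocytes, had 2.27, 3.05 and 2.25 CPM in the APAP samples and 1.65 CPM in the control (log2 fold change 0.62, SE 0.31, adjusted p = 0.152). For Fas the control lay just above the APAP range, and for Fasl just below it. Tnfsf10 (TRAIL) had 12.7, 12.6 and 11.7 CPM in the APAP samples and 13.4 CPM in the control (adjusted p = 0.511). Its mouse death receptor Tnfrsf10b had 53, 42 and 58 counts in the APAP samples and 6 in the control, and rose by 2.8 on the log2 scale (SE 0.53, adjusted p = 0.00972). The receptor was tested only through the APAP group, so its call adds no support of its own. Its level was near 1 CPM or less in every library.

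Tnfrsf22 and Tnfrsf23, mouse TRAIL receptors that carry no death domain and act as decoys, lie beside the related Tnfrsf26 on chromosome 7. Their levels in the APAP samples were 4.2 to 4.86, 5.68 to 7.12 and 15.2 to 17.1 CPM, and in the control 4.07, 6.74 and 16.2 CPM. None of the 3 passed the test (adjusted p = 0.536, 0.857 and 0.905). Because the genes are related and the sources used here do not say how shared reads were handled, reads could have been split between them. Tnfrsf23 and Tnfrsf26 also share 4.1% and 3.3% of their exon bases with an RNA on the opposite strand.

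Tnfrsf21 (death receptor 6) was one of the most abundant members, at 133, 144 and 134 CPM in APAP Cxcr4+ macrophages and 135 CPM in control macrophages. The control lay within the APAP range, and the log2 fold change was 0.03 (SE 0.09, adjusted p = 0.832). Tnfsf15 (TL1A), a ligand of endothelial and myeloid cells, had 8, 16 and 31 counts in the APAP samples and 0 in the control, where the floor of 3 counts is 0.0668 CPM. Its mean level was at least 4.92-fold higher, for counting error only. The test was passed (adjusted p = 0.0345) but not without the second APAP sample (0.0748) or with limma-voom (0.0564). Tnfsf15 was tested only through the APAP group, so its call adds no support of its own. Its receptor Tnfrsf25 (death receptor 3), known from T cells, had 0.836, 1.17 and 1.16 CPM in the APAP samples and 0.601 CPM in the control (adjusted p = 0.154).

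**Figure D3:**
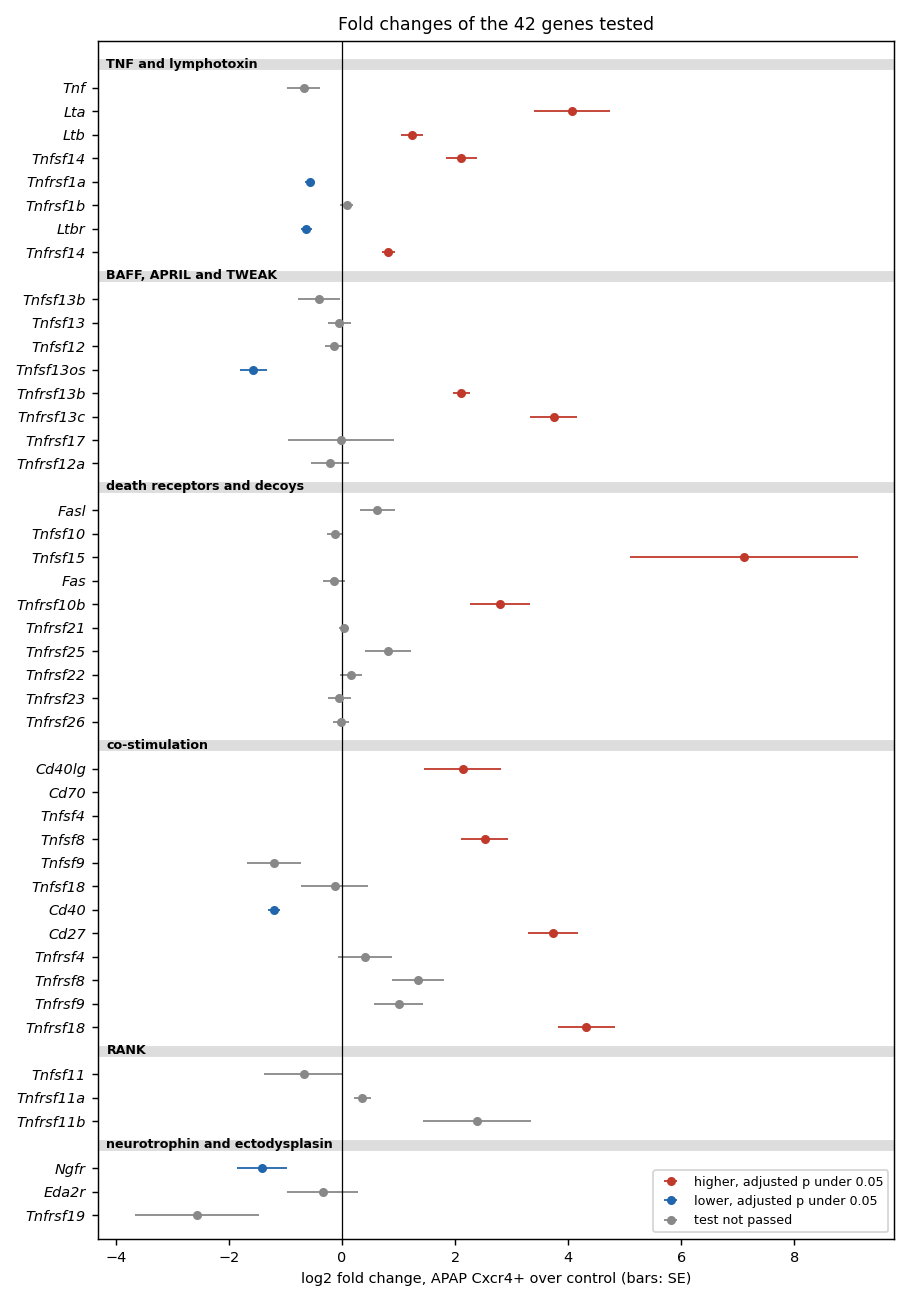
Log2 fold change, APAP Cxcr4+ over control, of the 42 TNF ligand and receptor genes tested, grouped by signalling axis, with bars of 1 SE from the edgeR fit; red and blue points passed the test as higher or lower, and Cd70 and Tnfsf4 have no point because they were not tested. Lta, Tnfrsf18, Tnfrsf13c and Cd27 lie between 3.73 and 4.32, Cd40 and Tnfsf13os lie at -1.2 and -1.57, and the fitted value of Tnfsf15 depends on the prior count.

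The co-stimulatory pairs, which lymphocytes use to talk to each other and to antigen-presenting cells, held 4 genes that rose and 1 that fell among 10 tested, beside 25.4% and 18.9% of all genes. Cd40, the receptor by which T cells activate macrophages, dendritic cells and B cells, was the member that fell. It had 14.5, 13.3 and 14.0 CPM in APAP Cxcr4+ macrophages and 32.0 CPM in control macrophages (log2 fold change -1.2, SE 0.11, adjusted p = 0.00151). All 3 APAP values lay close together and well below the control. Its ligand Cd40lg, known from activated T cells, had 2.75, 1.82 and 1.01 CPM in the APAP samples and 0.423 CPM in the control (log2 fold change 2.13, SE 0.68, adjusted p = 0.0492). The first APAP sample was the highest and the third the lowest, and the call was lost without the second (adjusted p = 0.102) and with limma-voom (0.13).

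Cd27, found on T cells, NK cells and memory B cells, had 5.87, 8.1 and 4.78 CPM in APAP Cxcr4+ macrophages and 0.467 CPM in control macrophages (log2 fold change 3.73, SE 0.45, adjusted p = 0.00248). Its ligand Cd70 had 4 counts in the first APAP sample and 0 in the other libraries, control included, and was not tested. Tnfrsf18 (GITR), a receptor of regulatory and activated T cells, had 79, 113 and 105 counts in the APAP samples and 4 in the control (log2 fold change 4.32, SE 0.5, adjusted p = 0.00228). Tnfrsf18 was tested only through the APAP group, so its call adds no support of its own. It shares 27.2% of its exon bases with Gm16008 on the opposite strand, which had 0.179, 0.168 and 0.29 CPM in the APAP samples and 0 counts in the control. Its ligand Tnfsf18 had 17, 14 and 15 counts in the APAP samples and 14 in the control (adjusted p = 0.871). For both receptors all APAP samples lay above the control, while their ligands had few counts or none in both groups.

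Tnfsf8 (CD30 ligand) had 84, 132 and 120 counts in the APAP samples and 16 in the control, and rose by 2.52 on the log2 scale (SE 0.41, adjusted p = 0.00609). Its receptor Tnfrsf8 (CD30) had 1.75, 1.49 and 1.02 CPM in APAP Cxcr4+ macrophages and 0.556 CPM in control macrophages, all above the control, with an adjusted p of 0.0573. That value passed without the third APAP sample (adjusted p = 0.0221) and with no count filter (0.0475). Tnfrsf9 (4-1BB) and Tnfrsf4 (OX40), receptors of activated T cells, had log2 fold changes of 1.0 (SE 0.44) and 0.41 (SE 0.48) and did not pass (adjusted p = 0.115 and 0.513). The ligand of Tnfrsf9, Tnfsf9, had 19, 17 and 33 counts in the APAP samples and 44 in the control (adjusted p = 0.0852). Tnfsf4, the ligand of Tnfrsf4, had 6 counts in the third APAP sample and 0 in the other libraries, control included, and was not tested.

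Most markers of T cells and NK cells were also higher, beside 25.4% of all genes higher and 18.9% lower. Of 12 T cell markers 9 rose and none fell, with summed levels of 130 to 167 CPM in the APAP samples and 82.6 CPM in the control. Of 8 NK cell markers 5 rose and none fell, with sums of 31.8 to 46.6 CPM in the APAP samples and 14.0 CPM in the control. Klrd1, an NK cell marker with 7 counts in the control, was tested only through the APAP group, so its call adds no support of its own. The T cell receptor subunits Cd3d and Cd3e, at 0.58 and 0.59 on the log2 scale, did not pass (adjusted p = 0.056 and 0.059). Cd8a had 15.3, 10.2 and 6.5 CPM in the APAP samples and 1.07 CPM in the control, while Cd4, at 23.2, 26.9 and 20.3 CPM in the APAP samples and 24.7 CPM in the control, did not pass (log2 fold change -0.07, adjusted p = 0.758). No T cell or NK cell marker was at 0 in the control. The part of lymphocyte RNA in Cd27, Tnfrsf18, Cd40lg and Tnfsf8 was not tested.

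Tnfrsf11a (RANK), the receptor that drives osteoclast formation from myeloid precursors, was abundant. Tnfrsf11a had 91.2, 110 and 115 CPM in APAP Cxcr4+ macrophages and 82.0 CPM in control macrophages, with the control below all 3 (log2 fold change 0.36, SE 0.15, adjusted p = 0.0955). Without the first APAP sample it passed (0.45, adjusted p = 0.00285), and with the trend over merged exon length removed its value was 0.02. The ligand Tnfsf11 (RANKL) had 7, 17 and 12 counts in the APAP samples and 16 in the control (adjusted p = 0.452). The decoy receptor Tnfrsf11b (osteoprotegerin) had 10, 12 and 18 counts in the APAP samples and 2 in the control, a ratio of 5.53 with a counting interval of 1.43 to 47.2, and did not pass (adjusted p = 0.0906). The receptor of this axis was present at a high level in both groups, and its ligand and decoy at very low levels.

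Ngfr, the neurotrophin receptor p75 that is known from neurons and hepatic stellate cells, had 18, 26 and 38 counts in the APAP samples and 60 in the control. It fell by 1.42 on the log2 scale (SE 0.44, adjusted p = 0.0437), and the call was lost without the first or the second APAP sample (adjusted p = 0.0573 and 0.105) and with DESeq2 (0.0903). Of 8 stellate cell and fibroblast markers, 4 were higher and 2 lower, beside 25.4% and 18.9% of all genes. Lum, a higher marker with 8 counts in the control, was tested only through the APAP group, so its call adds no support. The stellate cell gene Lrat stood at 2.83, 2.9 and 2.76 CPM in the APAP samples and at 8.86 CPM in the control, and Col1a1 at 8.16, 7.0 and 6.91 CPM in the APAP samples and 0.801 CPM in the control. The part of stellate cell RNA in the Ngfr values was not tested. Eda2r, a receptor of ectodysplasin A2, and Tnfrsf19 (TROY) did not pass (adjusted p = 0.681 and 0.107), at 10 to 16 and 0 to 6 counts in the APAP samples and 14 and 20 counts in the control.

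Ligands and receptors were set side by side in 28 pairs known to bind. Both partners were higher in 2 pairs, Tnfsf14 with Tnfrsf14 and Lta with Tnfrsf14, and both were lower in 0. In 4 pairs the ligand was higher and the receptor lower: Ltb with Ltbr, Tnfsf14 with Ltbr, Lta with Tnfrsf1a and Cd40lg with Cd40. One partner alone was called in 10 pairs and neither in 12. Both partners stood at 1 CPM or more in every APAP sample in 12 pairs, and in the control library in 9. Pairs share genes and are a description, not separate results. Pairs counted through a call of Lta, Tnfsf15, Tnfrsf10b or Tnfrsf18 rest on genes tested only through the APAP group, and those calls add no support.

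Neighbouring members shared a direction in some places and not in others. Of the 44 members, 23 lie in 9 groups of neighbours, with at most 1 other coding gene between successive members in the RefSeq gene order. Tnfsf15 and Tnfsf8 on chromosome 4 were both higher. Tnfsf14 was higher beside Tnfsf9, which did not pass, and Cd70, which was not tested. Tnfrsf18 was higher beside Tnfrsf4, which did not pass, and Tnfrsf1b and Tnfrsf8 both did not pass. Tnfsf15 and Tnfrsf18 were tested only through the APAP group, so their calls add no support to these contrasts.

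The intracellular steps behind the receptors were read from a list of 34 genes for adaptors, ubiquitin ligases, deubiquitinases and kinases, all of which were tested. Of these 12 were higher and 7 lower, beside the background of 25.4% and 18.9%, with a median log2 fold change of 0.12. The necroptosis kinase Ripk3 had 48.1, 46.0 and 43.3 CPM in APAP Cxcr4+ macrophages and 99.3 CPM in control macrophages, and fell by 1.12 on the log2 scale (SE 0.09, adjusted p = 0.00119). Mlkl, the pore-forming protein it activates, had 36.8, 36.5 and 32.4 CPM in the APAP samples and 55.0 CPM in the control, and fell by 0.64 (SE 0.11, adjusted p = 0.00695). The death-domain adaptors Tradd and Fadd fell by 0.49 and 0.50, and the adaptor Tank by 0.60, but without the second APAP sample Tradd and Fadd did not pass (adjusted p = 0.0505 and 0.0809). For these genes all 3 APAP samples lay below the control, which is not support apart from their calls. Caspase 8 (Casp8), its inhibitor Cflar and the scaffold kinase Ripk1 did not pass (log2 fold changes -0.08, 0.03 and 0.19), although Cflar and Ripk1 were called lower with the length correction described next (-0.75 and -0.32).

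Among the TRAF adaptors, Traf1, which is itself induced by NF-kB, had 7.72, 8.47 and 7.35 CPM in the APAP samples and 2.54 CPM in the control (log2 fold change 1.63, SE 0.2, adjusted p = 0.00274). Traf6, the adaptor of CD40 and RANK as well as of Toll-like receptors, had 46.4, 47.6 and 46.5 CPM in the APAP samples and 27.0 CPM in the control (0.80, SE 0.1, adjusted p = 0.00249). Traf4 rose by 1.54 and Traf2 fell by 0.39 (adjusted p = 0.103 without the second APAP sample), and Traf3 and Traf5 did not pass. The kinase genes Map3k7 (0.52), Ikbkb (0.58), Chuk (0.52) and Map3k14 (0.42) and the deubiquitinase Cyld (0.63) were higher in the edgeR fit.

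Many of these genes have a long merged exon length, and fold changes in these libraries followed it. Merged exons cover all transcripts of a gene and can be longer than any single transcript. Spearman's rho between log2 fold change and merged exon length was 0.223 across 18656 genes, which are not independent replicates. With that trend removed, 5 signalling genes were higher and 11 lower, Cyld stood at -0.13 and Ikbkb at -0.41 (adjusted p = 0.0276), and all genes split into 3254 higher and 3908 lower, against 4758 and 3537 before. Map3k7 (0.14, adjusted p = 0.263), Chuk (0.27, 0.0857), Map3k14 (0.04, 0.796) and Tradd (-0.25, 0.126) lost their calls, as did Cyld. Ripk3 (-0.95), Mlkl (-0.48), Tank (-0.95), Traf1 (1.08), Traf4 (1.55) and Traf6 (0.31) kept their calls. The 12 and 5 calls among the ligands and receptors held under this correction, all 17 of them the same genes. Without the second APAP sample 6 signalling genes were higher and 3 lower, and Chuk and Map3k14 did not pass (adjusted p = 0.0529 and 0.0871).

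**Figure D4:**
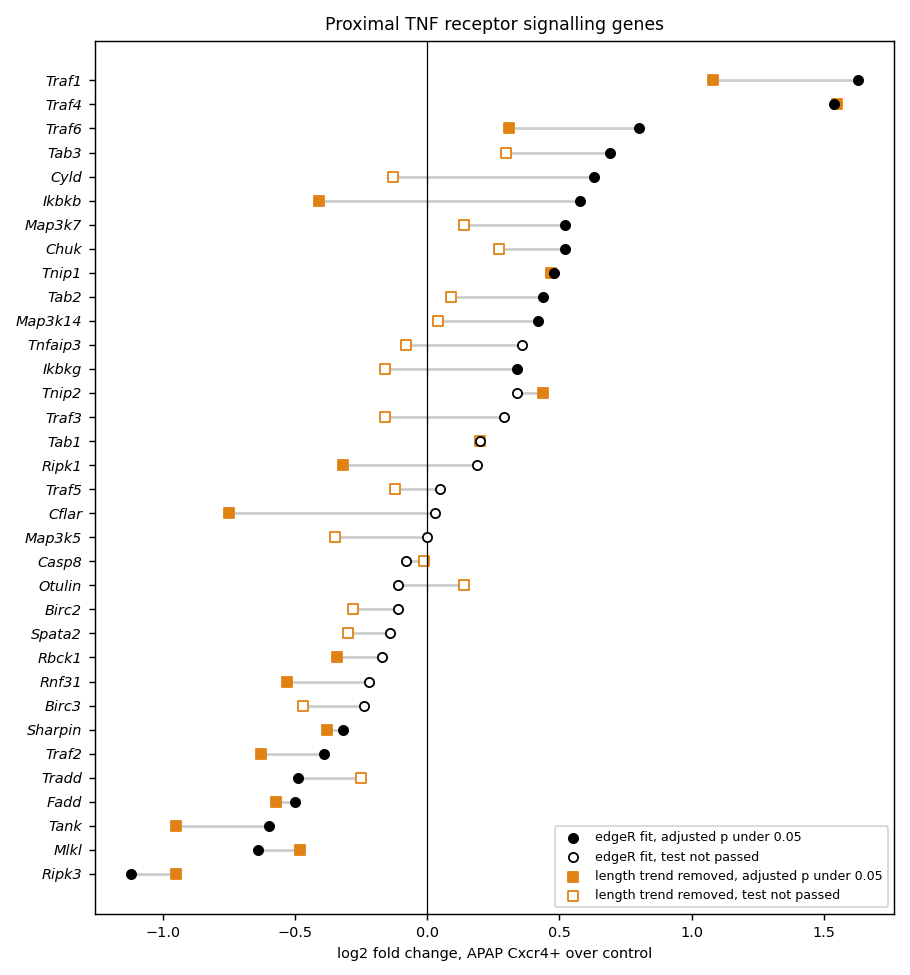
Log2 fold change, APAP Cxcr4+ over control, of the 34 signalling genes in the edgeR fit (circles) and with the trend over merged exon length removed (squares); filled symbols passed the test and grey lines join the values of a gene. Ripk3, Mlkl and Tank stay below 0 and Traf1, Traf4 and Traf6 above it in both, while Ikbkb and Cyld cross 0.

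Shedding of TNF and its receptors depends on the protease ADAM17 and its partners iRhom2 and FRMD8. Adam17 had 271, 275 and 275 CPM in APAP Cxcr4+ macrophages and 236 CPM in control macrophages, and did not pass (adjusted p = 0.101). Of the 6 genes listed, Adam10 (0.47), Frmd8 (0.53) and Timp3 (0.60) were higher and Rhbdf2, which encodes iRhom2, was lower (-0.32), beside the same background. All 4 calls were lost without the second APAP sample, and no gene of the list was higher after the length correction. Shedding itself was not measured, and these calls give no direction for it.

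Of 23 tested genes that TNF induces through NF-kB in many cells, 8 fell and 2 rose, beside 18.9% lower and 25.4% higher among all genes. Their median log2 fold change was -0.25, beside 0.08 over all genes. With the length trend removed 10 were lower and 4 higher, beside 3908 and 3254 of 18715 genes. The NF-kB inhibitors Nfkbia and Nfkbie fell by 1.13 (SE 0.24, adjusted p = 0.0141) and 1.10 (SE 0.12, adjusted p = 0.00199), and the subunit Relb by 1.02 (SE 0.11, adjusted p = 0.00187). Nfkbia had 125, 196 and 192 CPM in the APAP samples and 375 CPM in the control. The superoxide dismutase Sod2 fell by 0.97, Bcl3 by 0.79 and the chemokine gene Cxcl10 by 1.48. The survival gene Bcl2a1b fell by 1.18 but has near-identical copies, so its counts are uncertain. The 2 that rose were Traf1, which is also in the signalling list, and the cyclooxygenase Ptgs2. Ptgs2 had 3.68, 1.71 and 1.91 CPM in the APAP samples and 0.178 CPM in the control (3.75, SE 0.71, adjusted p = 0.00966). With 8 counts in the control, under the filter's minimum of 10, Ptgs2 was tested only through the APAP group, so its call adds no support of its own. Ptgs2 is also an immediate early gene, and in these libraries Fos, Fosb, Egr1 and Atf3 were higher, while Hspa1a, Hspa1b, Dnajb1 and Ier2 were lower, out of 10 immediate early and heat shock genes. The part of these genes' change in the Ptgs2 value was not tested.

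Counts of other cell markers are read beside the 25.4% of all genes called higher and the 18.9% called lower. Of 8 Kupffer cell markers 7 were lower, with sums of 12423 to 15417 CPM in the APAP samples and 32651 CPM in the control, and of 8 monocyte markers 7 were higher and 1 lower, with sums of 702 to 871 CPM in the APAP samples and 196 CPM in the control. Plasmacytoid dendritic cell markers were higher in 7 of 8 cases and conventional dendritic cell markers in 6 of 8. Siglech, like the monocyte marker Chil3, was at 0 in the control. Among 9 neutrophil markers 5 of 8 tested were higher, and Ly6g, Ngp and Camp were at 0 in the control. Endothelial markers were higher in 2 and lower in 4 of 8 cases, and hepatocyte markers were lower in 9 of 11. Biliary markers were higher in 2 of 4 tested, with sums of 1.67 to 2.83 CPM in the APAP samples and 1.38 CPM in the control. Chil3, Siglech, Klk1, Cxcr2, Mmp8, Ngp and Epcam had fewer counts in the control than the filter's minimum of 10. They were tested only through the APAP group, so their calls add no support of their own. The related genes outside the symbol rule, the ligand Eda and the receptor Relt, did not pass (adjusted p = 0.762 and 0.103). The part of these cell types in the TNF ligand and receptor values was not tested.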

How the data were processed

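Messenger RNA libraries of sorted liver macrophages (3 APAP Cxcr4+, 1 control) were made with a Tecan kit (universal plus mRNA-seq), per the labels' protocols. The authors deposited read counts per Ensembl gene, whole and not normalized. HISAT2, Subread and build mm39 are named in the submitters' processing notes. What each tool did and its version, which annotation was used, whether counting used strand and how shared reads were treated is not given in the sources used here. The APAP columns carry no replicate number and are numbered in table order.

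Symbols came from a gene table that matched 28926 of 29247 IDs (98.9%). The test was that of edgeR 4.0.16 (R 4.3.3) (filterByExpr with minimum count 10 and minimum total 15, TMM factors of 1.041, 1.033, 1.034 and 0.9, quasi-likelihood F test, no covariates, Benjamini-Hochberg adjustment). The test had 2 residual and 3.8 prior degrees of freedom and a common biological coefficient of variation of 0.162. The control is assumed to vary like the APAP libraries. The filter needs enough counts in 1 library only, so a gene with few counts in the control, at 0 or not, passed through the APAP group alone and had to differ. SE is the log2 fold change divided by the square root of F. The floor is 3 counts in a library, and intervals and floors cover counting error only. Exon lengths came from GENCODE M21, merged over all transcripts of a gene. Alternatives were median-of-ratios factors, no count filter, a minimum of 5 CPM in 1 or more libraries, omission of each APAP library in turn, DESeq2 1.42.0, limma-voom (limma 3.58.1) and an offset for the length trend (lowess span 0.3).

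The members, the lists, the pairs and the tests were chosen with earlier results of these data known. Full values were given for each member that passed with at least 1 CPM in a library, for Tnf, Lta, Ltb, Tnfrsf1a, Tnfrsf1b, Ltbr, Fas, Cd40 and the partners of members that passed, and for up to 8 called genes of a signalling list with the smallest p. Members and list genes named beyond this were picked after their values were seen.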

Additional observations from a re-analysis of the deposited data

How the results depend on the processing

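With median-of-ratios factors every member kept its call, and with the length trend removed the 17 called members kept theirs. A minimum of 5 CPM in 1 or more libraries left 19 members, of which 5 were higher and 4 lower. Of all 10959 genes left, 3097 were higher and 2956 lower. The 9 called members kept their calls. With no filter 13 of 44 members were higher and 5 lower, beside 4909 and 3346 of 27284 genes. The members' median was then 0.15, beside 0.53 over all genes. Leaving out one APAP library gave 10 to 13 members higher, 4 to 5 lower, and medians of 0.02 to 0.14. It gave 6 to 13 signalling genes higher and 3 to 8 lower, and 5001 to 9380 calls over all genes, the lowest without the second library. With the length trend removed 5 of 34 signalling genes were higher and 11 lower, beside 3254 and 3908 of 18715 genes. The median of all genes moved to -0.05 from 0.08. Cyld then stood at -0.13 and Ikbkb at -0.41. The cause was not tested.

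The members that changed sign passed in no fit. With the length trend removed the values were 0.07 for Tnfsf18 and Fas, 0.21 for Tnfsf13, 0.12 for Tnfsf12, 0.32 for Tnfrsf17, 0.01 for Tnfrsf12a and -0.07 for Tnfrsf21. With no filter Tnfrsf26 and Tnfrsf17 stood at 0.01. Leaving out one APAP library gave -0.07 to 0.03 for Tnfrsf26, -0.12 to 0.06 for Tnfrsf23, -0.12 to 0.05 for Tnfsf13, -0.85 to 0.39 for Tnfrsf17 and -0.01 to 0.06 for Tnfrsf21. Members under 1 CPM rest on few counts, which limits their precision. No paired analysis was possible because the control is a single library and its label carries no replicate number.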
